A study of Mus musculus with 4 samples.

Results

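The respiratory chain of the inner mitochondrial membrane passes electrons from NADH and succinate to oxygen, and most of its subunits are encoded in the nucleus. Complex I (NADH dehydrogenase) and complex II (succinate dehydrogenase) feed electrons in, complex III (the cytochrome bc1 complex) passes them to cytochrome c, and complex IV (cytochrome c oxidase) reduces oxygen. Complexes I, III and IV pump protons and complex II does not. Heart muscle carries many mitochondria, and messenger RNAs of these subunits are abundant in it. The list examined here held 37 nuclear-encoded subunit genes: 21 of complex I, 4 of complex II, 5 of complex III and 7 of complex IV. The clusters of a gene were those whose midpoint lay in its GRCm38 (mm10) span on its strand. In this way 36 genes had clusters in both replicates, of 13694 genes in all. They held 355 of 376266 clusters in replicate 1 and 358 of 388894 in replicate 2. The remaining gene, Ndufa2, an accessory subunit of complex I, has no strand in the tables used and too few clusters to read one from. Its span held 1 cluster in each replicate, both on the minus strand, with log2 folds of −4.36 and −3.37.

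PTBP1, the polypyrimidine tract binding protein 1, regulates splicing, and the study measured its binding to RNA by eCLIP, which recovers ultraviolet-crosslinked RNA with an antibody. It has 2 PTBP1 immunoprecipitates and 2 size-matched inputs from whole heart of wild-type C57Bl/6 mice, each input being 2% of its own lysate, and no other genotype or treatment. About 66 mg of frozen tissue went into each lysate, and the age of the mice and whether the lysates came from separate mice are not given. A cluster is a stretch of RNA with a fold of the immunoprecipitate over its input. Folds and p-values of clusters were computed by the authors and are taken from the authors' deposited tables. A negative log2 fold means less in the immunoprecipitate than in the input. The deposited −log10 p-value is 0 for every negative fold, so low folds carry no test. A cluster is called enriched here at a log2 fold of at least 3 with a −log10 p-value of at least 3, and reproducible when an enriched cluster of the other replicate overlaps it by at least 1 nt. A gene median is the median log2 fold over all clusters of a gene. Read counts are unknown, and the replicates are 2 lysates, so no test between groups of samples could be made. All 10 cardiomyocyte markers looked for had clusters in both replicates, as had all 8 fibroblast, 6 endothelial, 5 macrophage and 5 erythroid markers. The median of the gene medians was −2.84 and −2.46 in cardiomyocyte markers, 1.10 and 1.07 in fibroblast, 1.54 and 1.28 in endothelial, 0.62 and 0.15 in macrophage and −0.96 and −1.07 in erythroid markers. In whole heart the cell type behind a cluster is not known, and fewer cells of a type cannot be told apart from less RNA per cell.

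PTBP1 is known to bind pyrimidine-rich RNA, with UCUU and CUCUCU among its motifs. Sequence could be read only in short windows around annotated gene starts (RefSeq, GRCm38.p6), and no enriched cluster of these genes fell in such a window. In 4 genes, clusters of both replicates covered bases of the window, and these stretches are shown. Folds over them were low except in Ndufs7. The stretches hold only a part of the clusters over them: those of Ndufa4 and Ndufb8 had 112 and 101 nt in replicate 1. The rest of each cluster was not searched for motifs. The stretches are DNA letters of the transcript strand, at most 30 bases each, and capitals mark TCTT or CTCTCT.
Ndufa4, chr6:11907403-11907432, minus strand: gttgcagaagcggcttagcgtgtgtcctaa
Cox7c, chr13:86046754-86046783, minus strand: ggTCTTcgcgctctgccgagcaaggtcgtg
Ndufb8, chr19:44555393-44555416, minus strand: gcggagaaggtgaagatggctgcc
Ndufs7, chr10:80249199-80249228, plus strand: cgaaaggttggtggttcgagcccacccagg
TCTT stood once in Cox7c, and neither motif was found in the other 3. The motifs were searched on the transcript strand only, and they can share bases with each other. For comparison, TCTT occurred in 11.4% and CTCTCT in 1.39% of the last 30 bases of 32851 such windows. Those bases lie after the annotated start. The Ndufs7 stretch begins at −250 from its annotated start, and the Ndufb8 stretch has 24 bases, so the comparison is unlike in position and length. The clusters over these stretches had log2 folds of −2.31 and −2.34 in Ndufa4, −3.11 and −4.06 in Cox7c and −3.78 and −3.42 in Ndufb8 (replicates 1 and 2). The Ndufs7 stretch differed: its 2 clusters in replicate 1 had −0.64 and −0.67 and its cluster in replicate 2 had 0.20, and all 3 lay in the tRNA gene n-TNgtt7, inside the Ndufs7 span. The other Ndufs7 clusters ran from −4.19 to −3.70. Without those in the tRNA gene, a setting chosen after seeing the data, the Ndufs7 gene median was −4.04 and −4.06, against −2.28 and −4.00 with them.

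Most respiratory chain genes had a negative gene median, so their clusters were mostly lower in the PTBP1 immunoprecipitate than in the input. A gene median weighs all clusters equally and is not an amount of RNA per gene. Over the 36 genes, the median of the gene medians was −2.12 in replicate 1 and −2.83 in replicate 2, against 0.36 and 0.20 over all genes. In 29 of the 36 the gene median lay below 0 in both replicates, where 22.5% of all genes did so. It lay above 0 in both in 3 genes and on different sides in 4. A gene median below −2 in both replicates was found in 18 of the 36 genes, and in 2.77% of all genes. Both medians were under those of all genes in 31 of the 36. These are descriptions of a list of genes, whose low folds were known from an earlier look at the same tables, and carry no test.

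**Figure D1:**
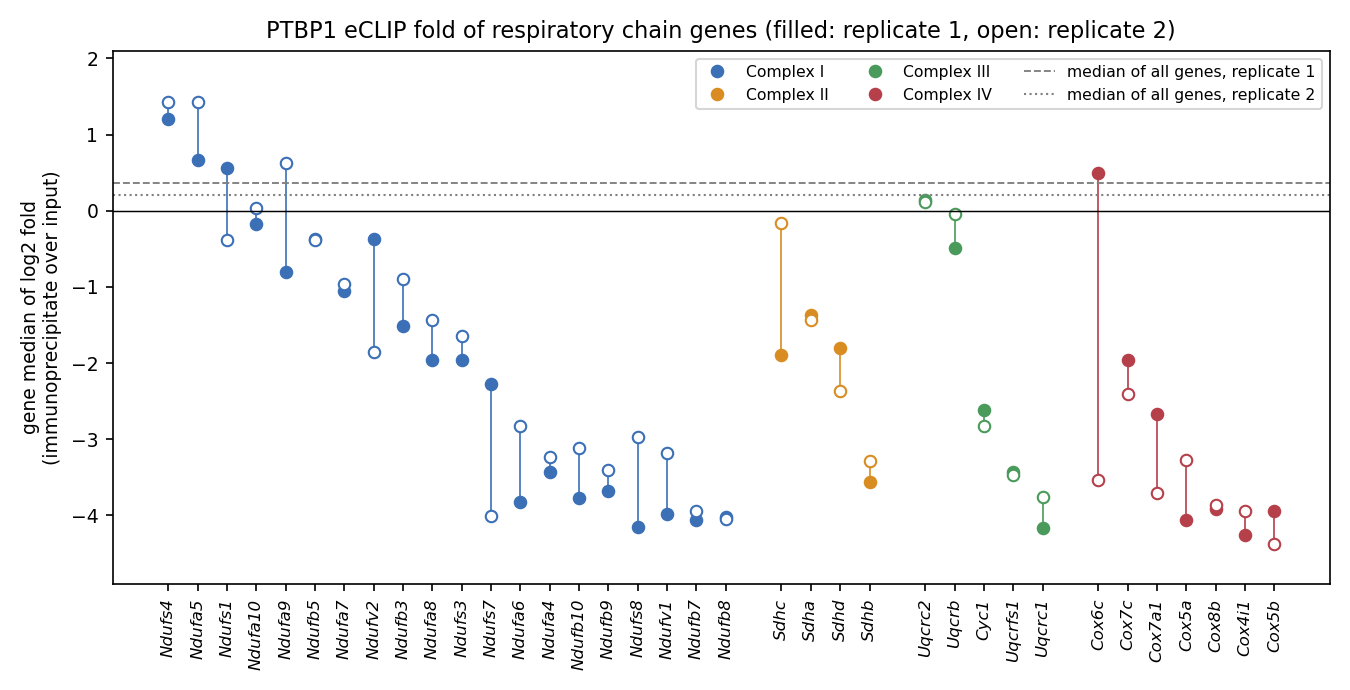
Gene median of the log2 fold (immunoprecipitate over input, vertical axis) for 36 respiratory chain genes, ordered within complexes I to IV by the mean of both replicates. Filled points are replicate 1, open points replicate 2, a line joins the 2 values of a gene, and the dashed and dotted lines are the medians of all genes (0.36 and 0.20). Most genes lie below 0, down to about −4, and Cox6c has the widest gap between replicates.

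The replicates gave similar gene medians with some wide gaps. Across the 36 genes, Pearson's r was 0.827 and Spearman's rho 0.782, and the difference between replicates had a standard deviation of 1.00 log2 units. Of the 355 clusters in replicate 1, 241 overlapped a cluster of replicate 2. Over these 241 pairs, Pearson's r was 0.956, and 220 pairs had the same sign. Clusters without a partner are left out of this value, while the gene medians use all clusters. These correlations are across genes or clusters of the same 2 lysates. The widest gap was in Cox6c, an accessory subunit of complex IV, with gene medians of 0.50 and −3.53. Its 7 clusters of replicate 1 were 4 between 0.50 and 1.94 and 3 between −4.16 and −3.59. Its 7 of replicate 2 held 5 between −4.07 and −3.33, and the others had −0.83 and 0.62. The low clusters of Cox6c stood at the same places and in the same range of folds in both lysates. Where replicate 1 had 1 cluster, at 35935285-35935353 (−3.65), replicate 2 had 3 touching ones from 35935285 to 35935412 (−3.95, −3.53 and −3.33). The larger number of clusters below −2 in replicate 2 came from this place. The number above 0 differed as well, with 4 in replicate 1 and 1 in replicate 2. Differences of about 1 log2 unit between 2 genes are within the spread between lysates, and 14 of the 36 genes had under 5 clusters in a replicate.

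Complex I is entered by electrons from NADH and was the complex with the widest span of gene medians. Over its 20 placed genes the median was −1.96 in replicate 1 and −1.75 in replicate 2, and 15 had gene medians below 0 in both. Among genes of complex I with at least 5 clusters in each replicate, the median averaged over replicates was −0.63, against −1.86 over all 20. The genes of the 6 catalytic core subunits on the list (Ndufs1, Ndufs3, Ndufs7, Ndufs8, Ndufv1 and Ndufv2) had −2.12 and −2.41, and 14 genes of accessory subunits had −1.74 and −1.20. Ndufs4, an accessory subunit gene of complex I, was highest by the mean of both replicates, with gene medians of 1.21 and 1.43. Ndufa5, another accessory subunit gene, followed with 0.67 and 1.43, and Ndufs1, which encodes the largest core subunit, had 0.56 and −0.38. Ndufa10 lay close to 0 with −0.17 and 0.03. At the other end, Ndufb8 had −4.02 and −4.05 and Ndufb7 −4.06 and −3.94. In Ndufb8, all 9 clusters of replicate 1 lay between −4.58 and −3.78, and 9 of the 10 in replicate 2 between −4.31 and −3.42, the other being at 0.84. Ndufs8 had −4.15 from 1 cluster in replicate 1 and −2.97 from 3 in replicate 2, and Ndufv1, which encodes the flavin-binding subunit, had −3.98 and −3.18.

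Complex II, which takes electrons from succinate, had a median of −1.85 and −1.90 over its 4 genes, and all 4 lay below 0 in both replicates. Sdhb, the iron-sulfur subunit, was lowest in both with −3.56 and −3.29. Sdhc, one of the membrane anchors, had −1.90 and −0.16, which was the highest by the mean of both replicates but the third of the 4 genes in replicate 1. The other anchor gene, Sdhd, had −1.80 from 2 clusters and −2.37 from 1. Sdha, the flavoprotein subunit, had gene medians of −1.37 and −1.43, and its 8 and 9 clusters all lay between 97.2% and 99.7% of the way from the 5′ end of its 28.0 kb span. The folds of Sdha clusters lay between −2.01 and −0.73 in replicate 1, and replicate 2 had −2.16 to −0.99. No other member with more than 2 clusters in each replicate had them all in the last 10% of its span.

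Complex III had a median of −2.62 and −2.83 over its 5 genes, of which 4 lay below 0 in both replicates. Uqcrc2, a core protein gene, was highest with 0.14 and 0.12. Uqcrc1, the gene of the other core protein, was lowest with −4.17 and −3.76. The 2 core proteins stand in the complex together, and their genes differed by more than 3 log2 units in each lysate. In Uqcrc1, 15 of 16 clusters in replicate 1 and 16 of 17 in replicate 2 lay below −2. In Uqcrc2 this held for 5 of 14 and 4 of 12. The gene of the Rieske iron-sulfur protein, Uqcrfs1, had −3.43 and −3.47, and that of cytochrome c1, Cyc1, had −2.62 and −2.83. Uqcrb had 2 clusters in each replicate, 1 on each side of 0 (−2.20 and 1.21, then −2.52 and 2.43).

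Complex IV, the oxygen-reducing end of the chain, had the lowest median of the 4 complexes among the members. It was −3.92 in replicate 1 and −3.71 in replicate 2, over 7 genes. This holds for the genes on the list: 8 further complex IV genes had −1.25 and −2.09, above the members of complex III. Their median span was 7.95 kb. Cox6c had 0.50 and −3.53, and the other 6 lay between −4.26 and −1.96 in replicate 1 and between −4.38 and −2.40 in replicate 2. The upper end in both was Cox7c, whose clusters in the snoRNA gene Gm22574 had −1.96, for both of them, in replicate 1 and −0.74 in replicate 2. Without these, a setting chosen after seeing the data, Cox7c had −1.54 and −4.06. Cox5b had −3.94 and −4.38, the lowest by the mean of both replicates, and Cox4i1 had −4.26 and −3.95, the lowest in replicate 1. Cox8b and Cox7a1 encode heart and muscle forms of their subunits. Cox8b had 1 cluster in each replicate, at −3.92 and −3.86, which lay at opposite ends of the gene. Cox7a1 had −2.67 from 3 clusters and −3.71 from 1. Ndufa4 is named as a complex I gene, although its protein is also described as a subunit of complex IV. It had −3.43 and −3.24, and counting it with complex IV moved the median of that complex, averaged over replicates, to −3.65 from −3.81. The complexes differed in gene span as well. The median span was 2.00 kb in complex IV, 5.00 kb in complex III, 9.30 kb in complex I and 19.7 kb in complex II, and the part of span in the order of the complexes was not tested.

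**Figure D2:**
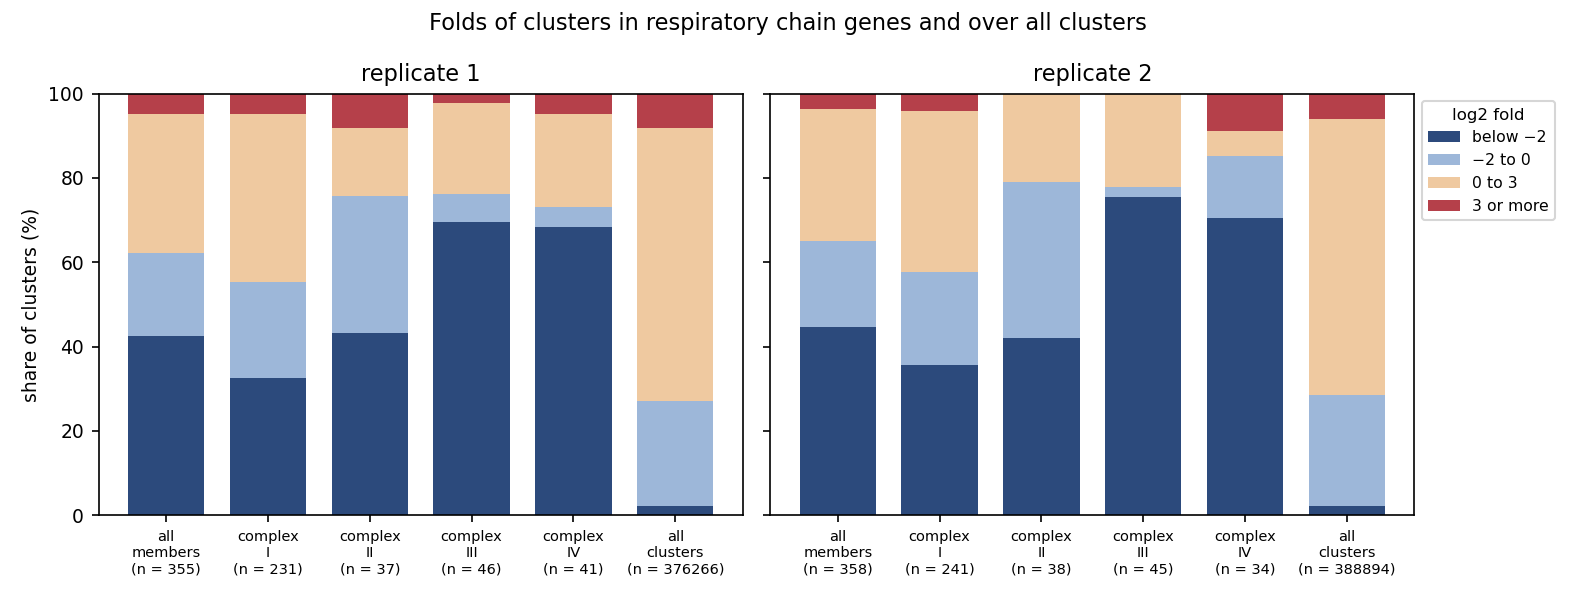
Share of clusters (vertical axis, percent) in 4 classes of log2 fold, for all member genes, each complex and all clusters, in replicate 1 (left) and replicate 2 (right); n is the number of clusters. Folds below −2 make up 42.5% and 44.7% of member clusters, against 2.21% and 2.11% of all clusters.

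Strongly depleted clusters made up a large share of the clusters in these genes and a small share of all clusters. Of the clusters in the 36 genes, 151 of 355 in replicate 1 (42.5%) and 160 of 358 in replicate 2 (44.7%) had a log2 fold below −2, where 2.21% and 2.11% of all clusters did. The bound of −2 was chosen after seeing the data. Of all clusters, 90.3% and 90.7% had a fold value held by at least 100 clusters of the same replicate. Of member clusters, 52.1% and 51.1% had such a recurring value. Read counts are unknown, and the part of these recurring values in the shares below −2 was not tested. Low values were not limited to these genes: gene medians below −2 in both replicates were found in 25 of 30 ribosomal protein genes and 11 of 15 genes of complex V, the ATP synthase, beside the 18 of 36 members. The share of clusters below −2 was 32.5% and 35.7% in complex I and 43.2% and 42.1% in complex II. It was 69.6% and 75.6% in complex III and 68.3% and 70.6% in complex IV. Complexes III and IV thus held clusters below −2 at a higher share than complexes I and II in both lysates. These shares pool clusters, so genes with many clusters weigh more. Ndufs4 held 53 of the 231 and 62 of the 241 clusters of complex I, with 2 and 5 below −2. Uqcrc1 held 15 of the 32 and 16 of the 34 clusters below −2 in complex III. Recurring fold values made up 65.8% and 62.7% of the clusters in complex I and 27.0% and 28.9% in complex II. They made up 26.1% and 28.9% in complex III and 26.8% and 23.5% in complex IV. Their part in the order of the complexes was not tested. In 34 of the 36 genes at least 1 cluster lay below −2 in both replicates, the exceptions being Ndufb3 and Sdhd. In 16 of the 36, clusters below −2 and clusters above 0 stood in the same gene in both replicates. Folds were all below 0 in both replicates in 11 genes.

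A larger share of the clusters of respiratory chain genes than of all genes lay at the 3′ end of the span, and their folds there were low. The last 10% of the span held 67 clusters in replicate 1 (18.9%) and 62 in replicate 2 (17.3%), where it held 10.1% and 10.0% of clusters over all genes. Sdha alone gave 8 of the 67 and 9 of the 62. The comparison is not matched for span, with a median of 7.60 kb in members and 28.4 kb over all genes. The part of span in this difference was not tested. The following values are for the clusters of members. The median log2 fold in the last 10% was −2.88 and −2.84, against −0.38 and −0.80 in the middle 80% of the span. In the first 10% it was −2.62 and −1.97. Over all genes the median was 0.15 and 0.03 in the last 10% and 0.74 and 0.62 in the middle. The enriched clusters of members lay in the first 10% (2 and 3 clusters, all of Ndufs4) and in the middle 80% (12 and 9). They made up 4.26% and 7.32% of member clusters in the first 10% and 4.98% and 3.53% in the middle. Over all genes the share enriched was 6.47% and 5.04% in the first 10% and 6.60% and 4.92% in the middle. It was lowest in the last 10% over all genes too, with 3.90% and 2.56%. Exons, introns and untranslated regions were not used here, so which of these a cluster lies in is not known.

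Reproducible enriched clusters lay in 4 of the 36 genes, Ndufs4, Ndufa9, Ndufs1 and Cox5a. Of all genes with clusters in both replicates, 24.9% held one. Those genes have a median span of 28.4 kb, against 7.60 kb in the members. The share was 3.65% of all genes under 10 kb, 12.9% at 10 to 30 kb and 38.7% at 30 to 200 kb. Of single clusters, 14 of 355 were enriched in replicate 1 (3.94%, 95% Wilson interval 2.36 to 6.51) and 12 of 358 in replicate 2 (3.35%, 1.93 to 5.77), where 6.31% and 4.71% of all clusters were. Each interval includes the share over all clusters of its replicate. The intervals cover counting error only and treat clusters of 1 gene as independent. Taken separately, 6 genes held an enriched cluster in replicate 1 and 4 in replicate 2, where 33.6% and 28.1% of all genes did. With a stricter −log10 p-value of at least 5, the 4 genes became 2, where 20.8% of all genes passed.

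Cox5a carried the sharpest contrast within a gene. It encodes a subunit of complex IV on chromosome 9 from 57517328 to 57532427, on the plus strand. Near the middle of the span, 51.2% from its 5′ end, the cluster chr9:57524991-57525131 reached a log2 fold of 3.77 in replicate 1, and chr9:57524979-57525128 had 5.05 in replicate 2, with −log10 p-values of 18.3 and 22.2. The 2 share 138 nt. The adjoining cluster up to 57525209 had 3.69 and 3.87, and one further on, 53.1% from the 5′ end, had 2.77 and 3.82. All other clusters of Cox5a were low except 1 of replicate 2 at 1.62. They lay at 26.8%, 77.3%, 85.9%, 95.6% and 99.3% of the span in replicate 1, with −4.85, −5.09, −4.49, −4.45 and −3.68. Replicate 2 had the corresponding 5 at −4.86, −5.00, −4.72, −3.86 and −3.27. High and low sites were thus placed alike in both lysates, and the gene median was −4.07 and −3.27. The value for Cox5a depended on the summary: averaged over replicates it was −3.67 as a median, −1.18 as a mean over clusters and −0.09 with touching clusters joined and weighted by length.

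Ndufs4 held the most enriched clusters of the 36 genes, 6 in each replicate, of which 4 in each were reproducible. Its span on chromosome 13 is 100.3 kb, the longest on the list, and it held 53 and 62 clusters. The reproducible ones stood in 2 places, about 7 kb and 12 kb from the 5′ end. In the first, the log2 fold of chr13:114381130-114381257 was 4.27 in replicate 1, and 2 clusters of replicate 2 that overlap it had 3.38 and 3.11. In the second, chr13:114376345-114376491 had 4.15 in replicate 1, while chr13:114376327-114376580 had 3.69 in replicate 2, with −log10 p-values of 21.6 and 14.8. Enriched clusters without an enriched partner had 3.13 and 3.92 in replicate 1 and 3.41 and 3.62 in replicate 2. Clusters below −2 were 2 of 53 and 5 of 62, a smaller share than in Cox5a, where they were 5 of 8 and 5 of 9.

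The sites in Ndufa9 and Ndufs1 were single. In Ndufa9, an accessory subunit gene of complex I, the cluster chr6:126845431-126845670 reached a log2 fold of 4.62 in replicate 1, and chr6:126845454-126845603 had 3.20 in replicate 2, with −log10 p-values of 8.06 and 4.78. It lay 13.2% into the span. In Ndufs1 the cluster chr1:63154377-63154504 had 3.74 and its partner, chr1:63154367-63154514, 4.03, with −log10 p-values of 3.92 and 5.04, at 67.4% of the span. The Ndufs1 site also lies in the span of the lncRNA gene Ino80dos, which is on the other strand. A further Ndufs1 cluster, at 62.9% of the span, was enriched in replicate 2 alone with 3.28, where replicate 1 had 2.34 and a −log10 p-value of 4.00.

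**Figure D3:**
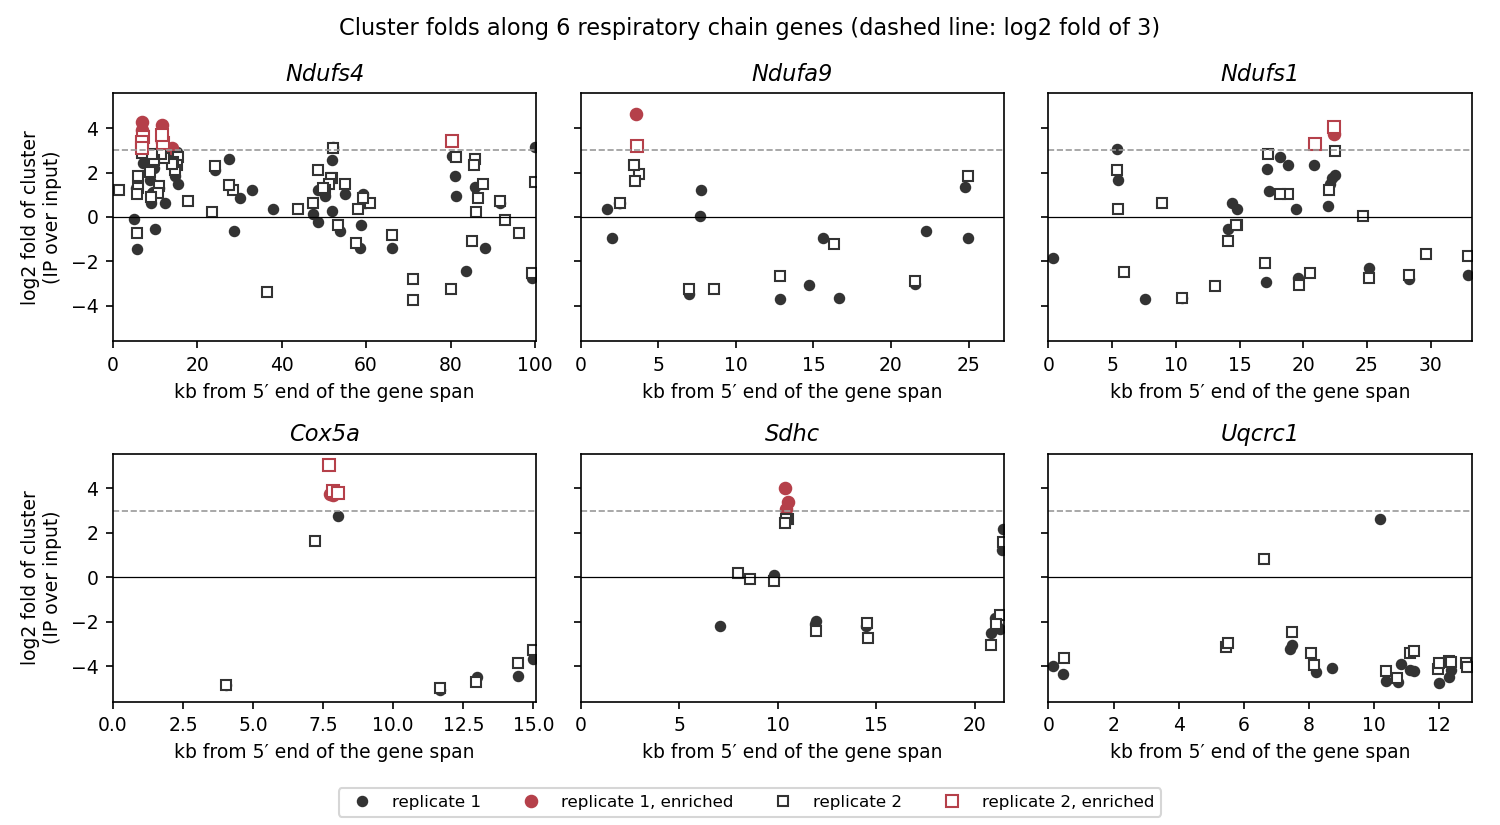
Log2 fold of each cluster (immunoprecipitate over input, vertical axis) against its distance from the 5′ end of the gene span in kb, for Ndufs4, Ndufa9, Ndufs1, Cox5a, Sdhc and Uqcrc1. Circles are replicate 1, squares replicate 2, red marks enriched clusters and the dashed line is a log2 fold of 3. In Cox5a a block of high clusters, up to 5.05, stands between clusters below −3, and in Uqcrc1 nearly all clusters lie below −2.

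Sdhc and Uqcrc2 passed the threshold in replicate 1 alone. In Sdhc, 3 adjoining clusters from 171140080 to 171140321 on chromosome 1 had log2 folds of 3.38, 3.06 and 4.01 in replicate 1 and were enriched. Their counterparts in replicate 2 had 2.64, 2.62 and 2.43, with −log10 p-values of 4.09, 4.10 and 2.13. With a log2 fold of at least 2 or of at least 1 as the threshold, Sdhc joined the 4 genes and no other member did. Of all genes, 30.9% passed at 2 and 31.7% at 1. At the very 3′ end of Sdhc, 99.8% into the span, a cluster of replicate 1 had 2.16, and one of replicate 2 at 99.7% had 1.60. At 99.0% and 99.1% the folds were −2.31 in replicate 1 and −1.68 in replicate 2, so the sign changed within the last 1% of the span in both lysates. In Uqcrc2, chr7:120644339-120644522 had 3.99 in replicate 1, and the overlapping cluster of replicate 2 had 2.20 with a −log10 p-value of 2.58. Ndufa5 had no enriched cluster, although 8 of its 12 and 8 of its 11 clusters were above 0. Its best overlapping pair had 2.04 and 2.71, with −log10 p-values of 1.49 and 3.01.

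Gene medians were higher in longer genes. Across the 36 genes, Spearman's rho between span and the mean of the 2 gene medians was 0.623, and across all 13694 genes it was 0.313. The genes share the same 2 lysates, and a longer gene has more clusters (rho 0.797 with the number in replicate 1). Grouped by span with bounds chosen after seeing the data, the 21 genes under 10 kb had a median of −3.43 and −3.24, against −0.38 in both replicates over all 2550 genes of that size. The 12 genes of 10 to 30 kb had −1.64 and −1.43, against 0.20 and 0.03 over 4574 genes. Both classes of the list lay below genes of like span in both lysates. The 3 genes of 30 to 200 kb, Ndufs1, Ndufa10 and Ndufs4, had 0.56 and 0.03, against 0.49 and 0.36. Gene medians below 0 in both replicates were found in 19 of the 21 members under 10 kb, where 48.7% of all genes of that size had them, and in 10 of 12 at 10 to 30 kb, where 27% did. Above 30 kb it was 0 of 3 members and 9.67% of all genes. A reproducible cluster was held by 0 of 21 members under 10 kb and 3.65% of all genes of that size. At 10 to 30 kb it was 2 of 12 members and 12.9% of all genes, and above 30 kb 2 of 3 members and 38.7% of all genes. The share with a reproducible cluster was thus near that of all genes of like span in the class under 10 kb and in the middle class. The 3 members above 30 kb are too few for a share to be compared.

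**Figure D4:**
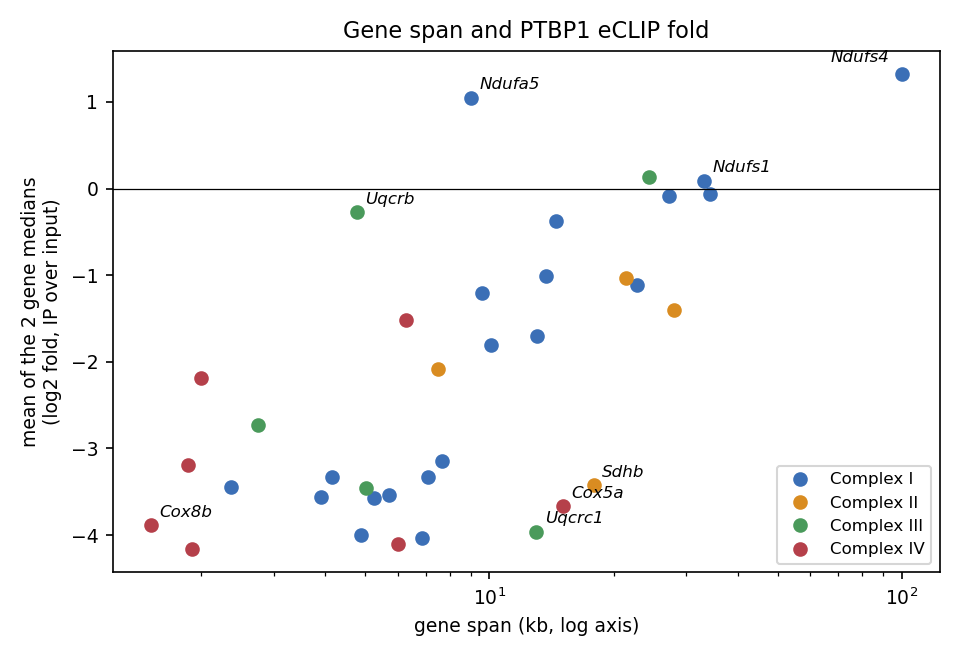
Mean of the 2 gene medians of log2 fold (vertical axis) against gene span in kb (horizontal log axis) for 36 respiratory chain genes, coloured by complex. Genes under 10 kb lie mostly between −4.2 and −2, Ndufa5 and Uqcrb stand above others of their span, and Sdhb, Cox5a and Uqcrc1 stand below.

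Other genes of oxidative phosphorylation gave a graded picture. Further subunit genes of complex I had a median of −1.20 and −1.59 (16 genes), those of complex III with cytochrome c −3.57 and −2.24 (5 genes), those of complex IV −1.25 and −2.09 (8 genes) and those of complex V −3.74 and −3.47 (15 genes). Below 0 in both replicates were 14 of 16, 5 of 5, 7 of 8 and 12 of 15 of these genes. A reproducible cluster was found in Ndufa12 of complex I (log2 folds 4.03 and 3.53) and in Atp5c1 of complex V (3.25 and 3.03), and in no gene of the other lists of subunits. Assembly factors, which build the complexes without being part of them, had a median of −0.38 in both replicates over 34 genes, and 5 of these held a reproducible cluster. One of the 5 is Cox16 (5.60 in both), but all 108 and 123 clusters in the Cox16 span also lie in Gm20498, a gene of the same strand, so the site cannot be assigned to Cox16 alone. The others named by the same rule were in Uqcc1 (4.74 and 3.78), Coa5 (3.77 and 3.76) and Ttc19 (3.46 and 4.66, from clusters sharing 1 nt). Regulators of mitochondrial biogenesis lay near the median of all genes with 0.36 and 0.46, and 6 of 12 held one. Esrrg, which encodes an orphan nuclear receptor, had 4.72 and 4.71, Ppara 4.55 and 4.85, Ppargc1b 4.41 and 4.76 and the coactivator gene Ppargc1a 4.68 and 4.29. These lists differ in span, with a median of 12.8 kb in assembly factors and 33.7 kb in the regulators, against 7.60 kb in the members, and its part was not tested. Of all genes, 24.9% held a reproducible cluster, with 12.9% at 10 to 30 kb and 38.7% at 30 to 200 kb.

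Subunit genes of complex IV that come in 2 forms could be set side by side. Cox8b had −3.92 and −3.86 and its partner Cox8a, expressed in most tissues, −2.49 and −2.53. Cox6a2, a heart and muscle form, had −3.55 and −3.47 against −1.22 and −1.82 in Cox6a1. In these pairs the heart and muscle form had the lower gene median in both lysates, although Cox8b and Cox6a1 had 1 cluster and Cox8a 2 in each replicate. Cox7a1 had −2.67 and −3.71 against −0.98 and −0.26 in Cox7a2. However, 9 of the 12 Cox7a2 clusters in replicate 1 and 6 of the 9 in replicate 2 also lie in Tmem30a, a gene of the same strand. Without them Cox7a2 had −3.38 and −3.01 from 3 clusters in each replicate, which is lower than Cox7a1 in replicate 1 and higher in replicate 2. Cox4i1 had −4.26 and −3.95, against 0.36 and 1.12 in Cox4i2, which is known from lung. The Cox4i2 values rest on 3 and 4 clusters, and those of Cox4i1 on 14 and 12.

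Among other abundant gene groups, the members lay between ribosomal protein and glycolytic genes. The median was −3.93 and −3.33 over 30 ribosomal protein genes, −1.30 and −1.20 over 17 glycolytic genes and −0.16 and −0.27 over 19 genes of fatty acid oxidation, which also encode mitochondrial proteins. A reproducible cluster was found in 4 of 36 members, in none of 30 ribosomal protein genes, in 1 of 17 glycolytic genes and in 8 of 19 fatty acid oxidation genes. Of all genes, 24.9% held one, with 3.65% under 10 kb and 12.9% at 10 to 30 kb. The median span was 7.60 kb in the members and 3.45, 16.6 and 27.0 kb in those 3 groups. No test was made of the differences between the groups.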

How the data were processed

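PTBP1 eCLIP of mouse heart was read from the deposited cluster tables, 1 for each immunoprecipitate set against its own input. Reads carried 10-nt molecular identifiers, and UMI-tools 0.5.1, cutadapt 2.7 and STAR 2.6.0c are named in the submitters' processing notes, with mm10 among the builds. For the cluster caller and its test, no name is given in the sources used here. The deposited log2 values are folds of the immunoprecipitate over input, and the deposited −log10 p-values run from 0 to 400, with 0 for every negative fold. Depth is unknown.

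Clusters were assigned by midpoint to GRCm38 RefSeq spans of the same strand. Strands came from the RefSeq promoter table (28 members) or, for 8 members, from clusters lying in that gene alone. Clusters, not samples, were tested by the authors. Here values were described by medians, counts, Wilson intervals and correlations without p, with Python, pandas, numpy and scipy; the counting was tested on simulated data. Replicates may be technical, since separate mice are not stated. Members, lists and settings were chosen with earlier results of these data known. The text names every member with a reproducible cluster, the 5 highest and 5 lowest gene medians, the highest and lowest of each complex, heart isoform genes with their partners and, in other lists, up to 4 genes with a reproducible cluster.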

Additional observations from a re-analysis of the deposited data

How the results depend on the processing

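No paired analysis was possible because the results come from no test between groups, and each fold already sets an immunoprecipitate against its own input. Averaged over replicates, the median was −2.48 over the 36 genes, −1.86 in complex I, −1.88 in complex II, −2.72 in complex III and −3.81 in complex IV. With the mean over clusters in place of the median, complex II had −1.72 and complex IV −3.07. With touching clusters joined and weighted by length they had −1.64 and −3.27. With genes of at least 5 clusters in each replicate alone, the median over the members left was −1.59, with −0.63 in complex I, −1.66 in complex II and −3.09 in complex III. With Ndufa4 counted in complex IV it had −3.65. A −log10 p-value of at least 5 left 2 genes with a reproducible cluster, against 4. Taking 1 replicate at a time gave −2.83 to −2.12 for all members, −1.96 to −1.75, −1.90 to −1.85, −2.83 to −2.62 and −3.92 to −3.71 for complexes I to IV, 31 genes below 0 in each, and 4 to 6 genes with an enriched cluster. The order of complexes I and II changed with the setting, and among the members complex IV was lowest in each of these. The sign of the gene median changed in Ndufs1 and Uqcrc2 with the mean, in Ndufa9 with joined clusters, in Ndufa10, Ndufa9 and Ndufs1 without replicate 1 and in Cox6c without replicate 2. In a setting chosen after seeing the data, leaving out clusters in another gene of the same strand moved the difference of Cox7a1 minus Cox7a2, averaged over replicates, to 0.0033 from −2.57. Low folds carry no p-value and gene medians of few clusters are imprecise. The cause of these changes was not tested.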

Other observations

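The mitochondrial genome encodes further subunits of complexes I, III and IV, and their clusters were looked at after seeing the data. Of 11 such genes, 8 had a strand and clusters in both replicates. No strand could be read for COX2, COX3 and ND4L, which are left out. Most of the 8 belong to complex I, and COX1 alone stands for complex IV. The median of the 8 was 0.99 in replicate 1 and 1.02 in replicate 2, against −2.12 and −2.83 over the 36 nuclear genes. ND2 was highest with 1.88 and 1.99, and ND6 lowest with −2.55 and −2.23. COX1, a catalytic subunit of complex IV, had −0.03 and −0.43, and CYTB of complex III had 1.01 and 0.85. The highest cluster in ND5 had 4.21 and 3.99. No test was made of the difference between the nuclear and the mitochondrial genes.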
